A study of Saccharomyces cerevisiae with 2 samples.

Results

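Overlapping alternative nucleosome positions were taken as pairs of neighbouring nucleosome centres that lie 10 to 100 bp apart on chromosome III of budding yeast. They were chosen by sorting the centres of each paired-end list along the chromosome, so the distances themselves are a description and were not tested. The H2A.Z list held 588 such pairs among 2263 neighbouring distances, or 26.0% (exact 95% interval 24.2 to 27.8%). The total list held 690 among 2352, or 29.3% (27.5 to 31.2%). In all, 1278 of 4615 neighbouring pairs were members. They involved 959 of 2264 H2A.Z centres and 1088 of 2353 total centres.

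A nucleosome is DNA wrapped around a core of histone proteins. The wrapped stretch is longer than 100 bp, so a DNA molecule normally cannot hold a full nucleosome at both centres of such a pair at the same time. A map made from many cells can still show both places, since cells differ and nucleosomes slide. DNA bends around the histones with the period of its helix, about 10 bp, so places that keep the same face of the DNA towards the histones are spaced by multiples of that period. In budding yeast the histone variant H2A.Z, encoded by HTZ1, is known for the nucleosomes that flank promoters.

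The study compared mononucleosomal DNA pulled down through the Myc tag of H2A.Z (the H2A.Z library) with the DNA of all mononucleosomes (the total library). Both came from the yeast strain yFR212, which is of the W303 background and mating type MATa, is GAL+ and psi+, carries the alleles ura3-1, trp1-1, his3-11,15, ade2-1 and can1-100 and a mutant allele of LEU2, and has 3 Myc copies at the end of HTZ1, so the tag is present in both libraries. Per the labels' protocols, cells in YPD medium reached an optical density of 0.8, were fixed with 1% formaldehyde, and their nuclei were digested for 20 minutes at 37 °C with several amounts of micrococcal nuclease (MNase), which cuts the DNA between nucleosomes. Which amounts entered each library is not given in the sources used here. Each library was deposited as a paired-end and a single-end list. There was 1 library per group and no read counts, so no difference between the libraries has a replicate check, depth is unknown, and no p-value is given. Intervals cover counting error over pairs or positions only, and they are too narrow, since pairs in a row share centres.

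Distances within pairs fell into separate ranges on either side of 50 bp. Members of H2A.Z pairs were a median of 73.0 bp apart (quartiles 56.3 and 85.9 bp) and those of total pairs 66.8 bp (quartiles 50.3 and 84.6 bp). From 10 to 50 bp there were 90 H2A.Z and 171 total pairs, on average 2.25 per 1 bp step for H2A.Z and 4.275 for total. From 50 to 100 bp there were 498 H2A.Z pairs, or 9.96 per step, and 519 total pairs, or 10.4 per step. The step at 50 bp was sharp in both lists. Between 40 and 50 bp there were 14 H2A.Z and 24 total pairs, and between 50 and 60 bp there were 74 H2A.Z and 103 total pairs. The fullest single step was that from 95 to 96 bp with 21 pairs in the H2A.Z list, while in the total list 5 steps tied at 15 pairs.

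This step coincided with how the entries were made. Entries that share an identifier and a read range are called here centres of 1 fit, that is of 1 mixture model. In the H2A.Z list 405 pairs (68.9%) came from 1 fit and 183 from separate fits. For total pairs the numbers were 417 (60.4%) and 273. Over all neighbouring centres, 57.3% in the H2A.Z list and 52.7% in the total list came from 1 fit. No centres of 1 fit were closer than 50.15 bp in the H2A.Z list or 50.11 bp in the total list, so every pair under 50 bp came from separate fits. The single-end lists held 0 pairs from 10 to 50 bp, and their shortest member pairs measured 50.01 bp in both libraries. A minimum distance inside a fit is not stated in the sources used here.

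**Figure D1:**
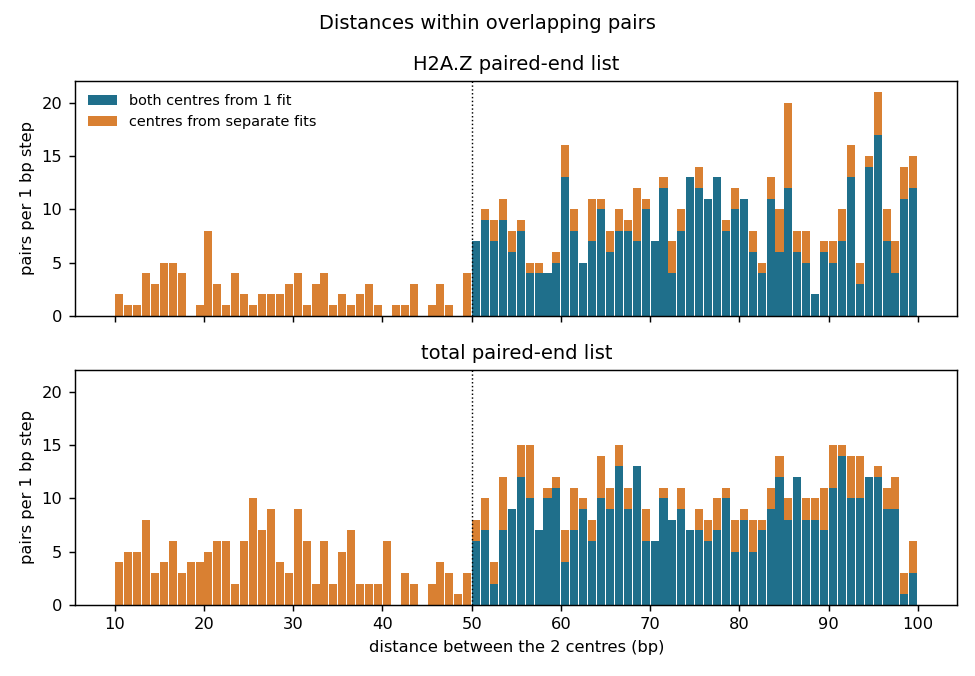
Number of pairs (vertical axis) per 1 bp step of the distance between the centres in bp (horizontal axis), for the H2A.Z list above and the total list below; blue bars are pairs from 1 fit and orange bars pairs from separate fits, stacked. Blue bars begin at 50 bp (dotted line), and the 90 H2A.Z and 171 total pairs left of it are all orange.

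Identifiers with a decimal part were common in pairs from separate fits. Each of the 183 H2A.Z and 273 total pairs held at least 1 identifier with a decimal part, and what that part stands for is not recorded. Both identifiers were fractional in 124 of these H2A.Z pairs, while such entries made up 25.8% of all H2A.Z positions. Among total pairs this was so in 222, with 32.2% of all total positions. The former are counts of pairs and the latter shares of single positions, so they are not like measures. The same count over other neighbours from separate fits was not computed. The read ranges of the fits overlapped in all 183 H2A.Z and all 273 total pairs.

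A 10 bp period did not stand out over all members at this precision. The 1 bp counts, less a smooth trend, were folded at each period from 5 to 20 bp, and the length of the mean vector was taken, which is 0 with no period and 1 if all distances fall on the same phase. At 10 bp it was 0.0647 in the H2A.Z list, where 10 bp ranked 7 of 16 periods and 8 bp was highest at 0.0992. For total pairs it was 0.0492, ranked 5 of 16, with the highest value, 0.0721, at 13 bp. The counting error of such a length, 1 over the square root of the number of pairs, was 0.0412 for H2A.Z and 0.0381 for total. The precision of the centres limits this comparison. From the deposited standard errors, taken as independent, the median standard error of a distance was 4.26 bp in the H2A.Z list and 2.84 bp in the total list. Normal errors of that size would leave 0.0280 of a 10 bp signal for H2A.Z and 0.204 for total. Averaged over the standard errors of the single pairs, the share left was 0.0730 for H2A.Z and 0.197 for total. Only 13 H2A.Z and 14 total pairs had a standard error under 2 bp. In these H2A.Z pairs the length at 10 bp was 0.282, ranked 7, beside a counting error of 0.277. In these total pairs it was 0.454, the highest of the 16 periods, beside a counting error of 0.267, in a subset of 14 pairs. At 5 bp the length in these 14 pairs was nearly as high, 0.439. In the upper 75% of scores the length at 10 bp over all total pairs was 0.0996 (0.0218 to 0.177), beside 0.0492 (-0.0036 to 0.102) in the whole list. These intervals are symmetric normal ones around the length. A length from a finite number of pairs lies above 0 even with no period, so an interval above 0 does not show one.

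Near 10 bp, pairs on both sides of the limit came from separate fits. Just outside 10 bp lay the H2A.Z pairs with centres at 3999 and 4008 (9.30 bp) and at 6431 and 6440 (9.23 bp). Just inside lay those at 49742 and 49752 (10.63 bp) and at 67571 and 67582 (10.89 bp). Of total pairs, those at 179757 and 179767 (9.73 bp) and at 66964 and 66974 (9.66 bp) fell outside, and those at 173865 and 173875 (10.06 bp) and at 164520 and 164530 (10.27 bp) inside. The last 2 of these pairs each had a member with almost no score, 0.000394 beside 2.95 and 0.00146 beside 1.29. The centres at 173865 and 173875 had standard errors of 9.08 and 12.9 bp, so their distance of 10.06 bp is not resolved. Near 100 bp the H2A.Z pairs at 271420 and 271520 (99.97 bp) and at 284051 and 284151 (99.90 bp) were members, while those at 284448 and 284548 and at 309730 and 309830, both 100.03 to 100.04 bp apart, were not. Of total pairs, those at 197762 and 197862 (99.97 bp) and at 241407 and 241507 (99.94 bp) were members, and those at 263722 and 263822 (100.03 bp) and at 183282 and 183382 (100.28 bp) were not.

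Score ratios within pairs lay below those of the whole list for H2A.Z and at its level for total chromatin. The score is the authors' own value for a position, with no stated scale, so ratios were taken only within a list. The higher-scoring member exceeded the lower by a median factor of 1.31 in the H2A.Z list (95% interval 1.28 to 1.34) and 1.37 in the total list (1.33 to 1.41). Over all neighbouring centres the median was 1.43 for H2A.Z and 1.39 for total. Ratios under 1.25 were found in 248 of 588 H2A.Z pairs (42.2%, against 32.7% of all H2A.Z neighbours) and in 248 of 690 total pairs (35.9%, against 34.7% of all total neighbours). A factor of at least 2 was reached by 71 of 588 H2A.Z pairs, or 12.1% (9.55 to 15.0%), where 28.1% of all neighbouring H2A.Z centres reached it. Among total pairs 145 of 690 reached it, or 21.0% (18.0 to 24.2%), where the share over all neighbours was 21.3%. The sides of a pair were nearly even: the member with the lower coordinate scored higher in 48.8% of H2A.Z pairs (44.7 to 52.9%) and in 49.3% of total pairs (45.5 to 53.1%).

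Balance depended on whether the centres came from 1 fit. Pairs from 1 fit had a median ratio of 1.26 in the H2A.Z list (1.23 to 1.31) and 1.28 in the total list (1.24 to 1.30), and a factor of at least 2 in 5.19% of H2A.Z and 6.00% of total pairs. Neighbours 100 to 200 bp apart from 1 fit had medians of 1.47 for H2A.Z and 1.34 for total, and 31.5% and 13.1% of these H2A.Z and total neighbours reached a factor of 2. Pairs from separate fits were less even than pairs from 1 fit. Their median was 1.48 (1.40 to 1.60) in the H2A.Z list, where 27.3% reached a factor of 2, and 1.82 (1.65 to 2.02) in the total list, where 44.0% did. Neighbours 100 to 200 bp apart from separate fits had medians of 1.57 for H2A.Z and 1.49 for total, and 33.8% of these H2A.Z and 28.1% of these total neighbours reached a factor of 2. Set beside such neighbours, separate-fit pairs as deposited were thus somewhat more even for H2A.Z and less even for total. Of these pairs, 9 of 183 for H2A.Z and 53 of 273 for total held a position with a reverse variance above 10000 squared bp. Such positions often had almost no score in total pairs, as described below. The ratios of separate-fit pairs without them were not computed, so how far they account for the total values is unknown. The ratio also differed with distance. It was 1.23 in the H2A.Z list and 1.30 in the total list at 10 to 20 bp. At 30 to 40 bp it was 2.52 for H2A.Z and 2.32 for total, and at 40 to 50 bp, from 14 and 24 pairs, 2.16 for H2A.Z and 3.30 for total. Pairs just past 50 bp were again nearly even. Between 50 and 60 bp the median was 1.20 for H2A.Z and 1.27 for total, and from 90 to 100 bp it was 1.42 for H2A.Z and 1.54 for total.

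**Figure D2:**
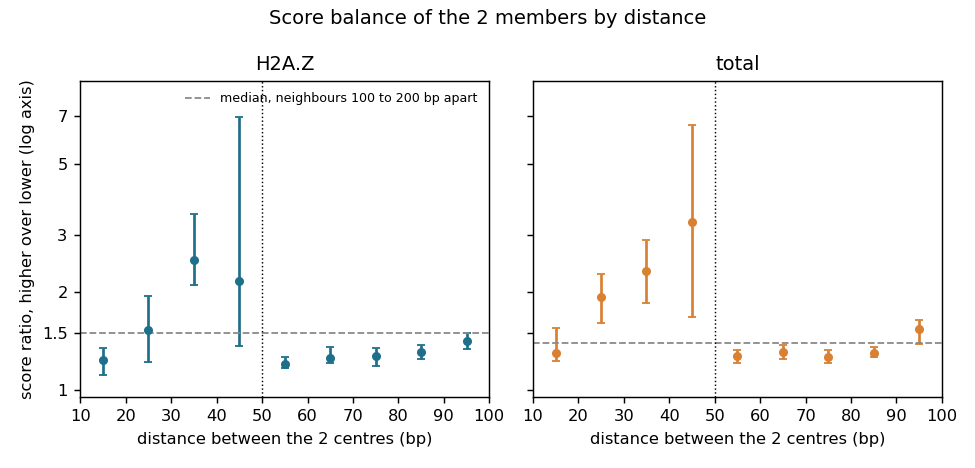
Median score ratio, higher over lower member (vertical log axis), in 10 bp bins of the distance between the centres in bp (horizontal axis), for the H2A.Z list on the left and the total list on the right; bars are order-statistic 95% intervals and the dashed line is the median of neighbours 100 to 200 bp apart. The medians at 30 to 40 bp, 2.52 for H2A.Z and 2.32 for total, lie above the dashed lines, and those from 50 to 90 bp lie below them.

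A few pairs had a member with almost no score. The highest ratio was 411 in the H2A.Z list and 7884 in the total list. A ratio of 100 or more was found in 5 H2A.Z and 47 total pairs. In all 5 H2A.Z and all 47 total pairs the variance of reverse reads was above 10000 squared bp in the lower-scoring member. Such a variance was present in 9 H2A.Z and 57 total pairs, of which 9 H2A.Z and 53 total pairs came from separate fits. It belonged to the lower-scoring member in 9 H2A.Z and 57 total pairs, and to the higher one in 0 H2A.Z pairs and 1 total pair. Without these positions the median ratio was 1.31 in the H2A.Z list and 1.33 in the total list.

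In some pairs both members were strong. Ranked by the score of the weaker member, the first H2A.Z pair had centres at 262589 and 262605, 15.4 bp apart and from separate fits, with scores of 7.65 and 8.54 that ranked 43 and 29 of the list. Of these only the second had a total partner (rank 187) and a single-end partner (rank 40). The next 3 H2A.Z pairs came from a single stretch between 138179 and 138546. Its first centres, at 138179 and 138259, scored 3.64 and 3.44 and had no partner within 20 bp in the total list or the single-end list. The centres at 138370, 138468 and 138546 scored 2.73, 3.05 and 3.24, their total partners ranked 1710, 1850 and 1038, and of these the single-end list held only the first, at rank 181. The fifth pair, at 305931 and 305991, scored 2.64 and 3.57, and its total partners ranked 1752 and 1708. The total partners of the centres at 138370, 138468, 305931 and 305991 thus ranked in the lower part of the 2353 total positions. The partner of 138546, at rank 1038, lay in the upper part.

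The 5 strongest total pairs were all short and all from separate fits. Their centres lay 12.1 to 23.1 bp apart. The first, at 271951 and 271975, scored 3.03 and 3.11, and the second, at 72407 and 72425, scored 2.84 and 2.93. The third, at 236383 and 236401, scored 3.34 and 2.73, and its first centre matched the H2A.Z position of rank 13. The fourth, at 179602 and 179614, scored 3.19 and 2.53, and the fifth, at 231671 and 231687, scored 2.51 and 2.98. The centre at 179602 had a standard error of 17.4 bp, more than the 12.1 bp within its pair, so these 2 places are not resolved. The centre at 231671 had a standard error of 5.12 bp in a pair 15.3 bp apart. In each of the 5 pairs the H2A.Z list held exactly 1 of the centres, and so did the single-end list. The single-end list had 0 pairs from 10 to 50 bp, so it could hardly hold both.

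By the medians over all pairs, members were less fuzzy than lone positions. The forward variance of read positions (sigmaSqF) had medians of 645 squared bp for higher-scoring members, 703 for lower-scoring members and 782 for the 1297 lone positions of the H2A.Z list, those with no neighbour within 100 bp. Their counterparts in the total list were 551, 618 and 722 squared bp, the last over 1248 lone positions. As SDs these are 25.4, 26.5 and 28.0 bp in the H2A.Z list and 23.5, 24.9 and 26.9 bp in the total list. Median reverse SDs over all pairs had the same order. Lower members of pairs from separate fits had median reverse SDs of 28.4 bp for H2A.Z and 26.8 bp for total. These were near the 28.3 bp (H2A.Z) and 27.0 bp (total) of lone positions. Within pairs the higher-scoring member was the sharper. The median difference in forward SD, higher minus lower, was -0.997 bp in the H2A.Z list (-1.29 to -0.77) and -1.07 bp in the total list (-1.49 to -0.77). It was sharper in 371 of 588 H2A.Z pairs, or 63.1% (59.1 to 67.0%), and in 425 of 690 total pairs, or 61.6% (57.8 to 65.2%). In the single-end lists this was not seen, with differences of -0.09 bp in the H2A.Z and 0.36 bp in the total list.

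Delta, the fitted length from the forward to the reverse peak of reads and so a measure of footprint length, hardly separated the members. Its median was 124.9 bp for higher and 125.4 bp for lower members of H2A.Z pairs, and 125.1 bp for lone H2A.Z positions. For total positions it was 126.8, 126.8 and 125.7 bp. The median difference within pairs was -0.35 bp in the H2A.Z list (-1.21 to 0.11) and -0.58 bp in the total list (-1.33 to 0.14). In pairs from separate fits it was -1.31 bp for H2A.Z (-3.13 to -0.04) and -3.35 bp for total (-5.13 to -1.20), the higher member having the shorter delta. In 9 of 183 H2A.Z and 53 of 273 total pairs of this kind the lower member had a reverse variance above 10000 squared bp. Without variances above that limit the difference over all pairs was -0.27 bp for H2A.Z and -0.13 bp for total. It was not computed for separate fits alone. Members from 1 fit had differences of -0.08 bp for H2A.Z (-0.86 to 0.52) and 0.35 bp for total (-0.55 to 1.17).

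Members also differed from lone positions in the standard error of the centre and in the score. Median standard errors of the centre were 2.61 bp for higher members, 3.18 bp for lower members and 2.13 bp for lone positions in the H2A.Z list. For total positions they were 1.76, 2.16 and 1.57 bp. Median scores were 0.696, 0.514 and 0.839 in the H2A.Z list and 1.30, 0.898 and 1.46 in the total list. The deposited mixing weight, a fraction, had medians of 0.177 for higher and 0.124 for lower members of 1 fit in the H2A.Z list, and 0.165 and 0.118 in the total list. Lone positions had medians of 0.234 for H2A.Z and 0.240 for total. In pairs from separate fits the higher member had a median weight of 1 in both libraries, and the lower member had 0.596 for H2A.Z and 0.598 for total. By these medians over all pairs, members had lower scores, larger positional errors and smaller forward variances than lone positions. The higher members of total pairs from separate fits were an exception in score, with a median of 1.55.

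Many pairs were parts of longer runs. The H2A.Z list had 371 groups of linked centres, of which 244 were isolated pairs and 127 were runs of 3 or more. The total list had 398 groups, 252 isolated pairs and 146 runs. Runs of 3 or more held 471 of 959 paired positions in the H2A.Z list (49.1%) and 584 of 1088 in the total list (53.7%). They spanned a median of 166.6 bp for H2A.Z (quartiles 137 and 213 bp) and 165.2 bp for total (quartiles 141 and 232 bp). Lone positions lay a median of 159.3 bp in the H2A.Z list and 160.1 bp in the total list from their neighbours. A span is the sum of distances that the choice of members limits, so nothing is read from its size. All centres of a run came from 1 fit in 51 of 127 H2A.Z runs and 45 of 146 total runs. Of the inner centres of runs, 65 of 217 (30.0%) scored above both neighbours in the H2A.Z list and 66 of 292 (22.6%) in the total list. The same share over all centres of a list was not computed, so nothing particular to runs is read from these counts.

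The longest runs covered several nucleosome repeats. The H2A.Z list had 4 runs of 7 centres, of which the 3 with the highest summed scores are given. They ran from 65916 to 66402 (486 bp, 5 fits), from 76601 to 77026 (425 bp, 3 fits) and from 55271 to 55652 (382 bp, 5 fits). The total list held 5, 4 and 4 centres over these stretches, and the H2A.Z single-end list 4, 4 and 3. The longest total run had 11 centres from 9 fits between 72081 and 72561 (479.6 bp), with scores from 0.646 to 2.93. Runs of 9 centres lay from 276229 to 276566 (337 bp, 7 fits) and from 184424 to 184749 (325 bp, 6 fits). Over these 3 stretches the H2A.Z list held 5, 3 and 3 centres and the total single-end list 4, 2 and 3. In these 6 runs, picked for their number of centres, both lists compared held fewer centres.

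By the median over all isolated pairs, a pair took up slightly more space than a lone position. The distance from the centre before an isolated pair to the centre after it had a median of 334.9 bp in the H2A.Z list (interval 330.0 to 339.9) and 329.4 bp in the total list (325.1 to 334.8). Around lone positions the same distance was 321.6 bp for H2A.Z (318.6 to 324.8) and 322.8 bp for total (319.3 to 325.1). Of the isolated pairs, 68.9% for H2A.Z (62.6 to 74.6%) and 71.4% for total (65.4 to 76.9%) had 300 to 400 bp between their outer neighbours. For lone positions these shares were 52.8% for H2A.Z and 54.9% for total. A distance of 400 to 500 bp was found for 10.2% of H2A.Z and 7.14% of total pairs. Lone positions had it in 10.2% for H2A.Z and 10.1% for total, so isolated pairs did not exceed them there. In 14 H2A.Z and 20 total isolated pairs an outer neighbour lay under 10 bp away. Without these the medians were 336.9 bp for H2A.Z and 332.1 bp for total. The lower limits on these distances differ by construction, since a pair adds its own distance. The median space also rose with the distance within the pair. For pairs 10 to 50, 50 to 75 and 75 to 100 bp apart it was 308.7, 322.1 and 346.9 bp for H2A.Z. For total the medians were 311.0, 326.4 and 344.7 bp.

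By the medians over all isolated pairs, members lay nearer the outer neighbour on their own side than lone positions lay to theirs. Higher members lay a median of 132.1 bp (H2A.Z) and 137.5 bp (total) from the outer neighbour on their own side, and 199.9 bp (H2A.Z) and 196.8 bp (total) from the one beyond their partner. Lower members lay 126.3 bp (H2A.Z) and 126.1 bp (total) from the near and 205.5 bp (H2A.Z) and 203.1 bp (total) from the far one. The midpoint of a pair lay 166.3 bp (162.9 to 168.6) for H2A.Z and 166.9 bp (162.2 to 169.1) for total from the outer neighbours, a value that by geometry lies between the near and far distances. The 20 H2A.Z and 31 total isolated pairs under 50 bp differed from this by their medians. Their higher member lay 168.0 bp (H2A.Z) and 167.2 bp (total) from the outer neighbour on its own side. From the neighbour beyond its partner it lay less far, 149.4 bp for H2A.Z and 139.2 bp for total.

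**Figure D3:**
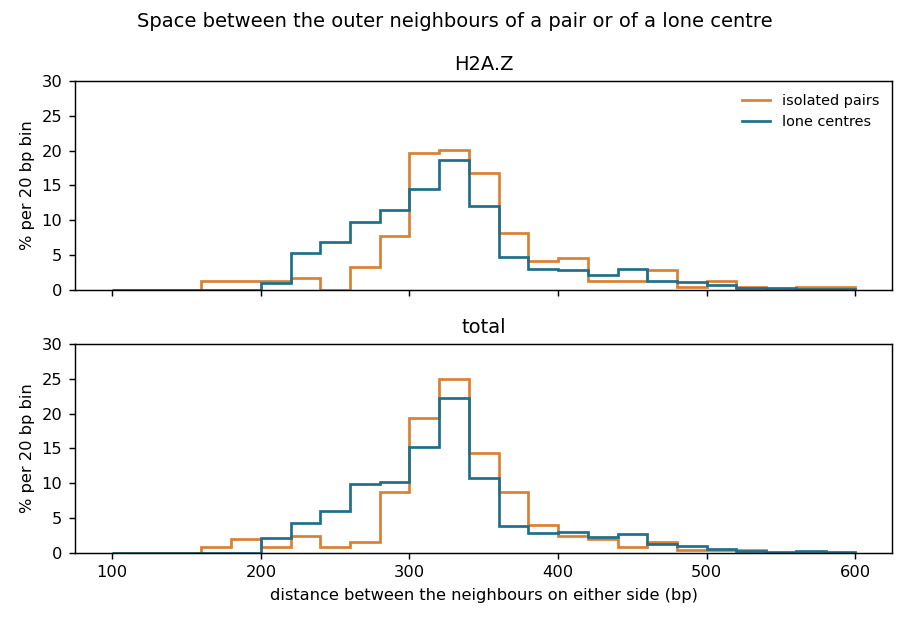
Distance in bp between the neighbours on either side (horizontal axis) of isolated pairs (orange) and of lone centres (blue), as the percentage of each per 20 bp bin (vertical axis), for the H2A.Z list above and the total list below. Both lines peak at 320 to 340 bp, which held 49 of 244 isolated H2A.Z pairs and 63 of 252 isolated total pairs.

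The single-end list of the same library is made from the same DNA but with its own fit, and it held both members of few pairs. A member counts as held when a centre of the other list lies within 20 bp of it and nearer to it than to its partner. Over all paired-end positions, 67.0% in the H2A.Z list and 66.7% in the total list had a single-end centre within 20 bp. Positions in pairs had one in 39.9% for H2A.Z (383 of 959) and 42.2% for total (459 of 1088). Positions outside pairs had one in 86.8% for H2A.Z (1133 of 1305) and 87.7% for total (1110 of 1265). Both members were held in 93 of 588 H2A.Z pairs (15.8%) and 83 of 690 total pairs (12.0%). Part of this was fixed in advance, since the single-end lists had 0 pairs from 10 to 50 bp. Of pairs under 50 bp, 0 of 90 H2A.Z and 0 of 171 total pairs were held in full. The higher member only was held in 204 H2A.Z (34.7%) and 271 total pairs (39.3%), and the lower only in 38 H2A.Z (6.46%) and 65 total pairs (9.42%). Where exactly 1 was held it was the higher one in 84.3% of H2A.Z pairs (79.1 to 88.6%) and 80.7% of total pairs (76.0 to 84.7%). In pairs with a score ratio of 2 or more that share was 98.0% for H2A.Z (89.4 to 99.9%) and 93.8% for total (87.5 to 97.5%). At ratios under 1.25 it was 78.0% for H2A.Z (67.5 to 86.4%) and 58.9% for total (48.0 to 69.2%).

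Where the single-end list held neither member, it often had a centre between them. This was so in 162 of 253 H2A.Z pairs and 156 of 271 total pairs, counting centres more than 20 bp from both. Pairs under 50 bp leave little or no room for such a centre. Among them it was so in 0 of 35 H2A.Z and 1 of 39 total pairs. Of the pairs from 1 fit, 279 of 405 in the H2A.Z list (68.9%) and 278 of 417 in the total list (66.7%) had exactly 1 single-end centre from 20 bp before to 20 bp after the pair. On a scale from 0 at the higher member to 1 at the lower member, this centre had a median place of 0.335 for H2A.Z (interquartile range 0.122 to 0.474) and 0.347 for total (0.121 to 0.446). It was nearer the higher member in 79.9% of these H2A.Z pairs (74.7 to 84.5%) and 81.3% of these total pairs (76.2 to 85.7%). For pairs under 50 bp the lone single-end centre lay beyond the higher member, on the side away from the lower, with medians of -0.331 (-0.507 to -0.158) in 55 H2A.Z pairs and -0.295 (-0.477 to 0.260) in 133 total pairs.

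The other library held more pairs in full than the single-end list did. Over all paired-end positions, 69.4% in the H2A.Z list had a total centre within 20 bp and 67.9% in the total list had an H2A.Z centre. Positions in pairs had one in 53.2% for H2A.Z (510 of 959) and 53.0% for total (577 of 1088). Positions outside pairs had one in 81.4% for H2A.Z (1062 of 1305) and 80.6% for total (1020 of 1265). The share was thus lower for positions in pairs by value, in both directions and for both kinds of list. Both members were held in 171 of 588 H2A.Z pairs, or 29.1% (25.4 to 32.9%), and in 166 of 690 total pairs, or 24.1% (20.9 to 27.4%). The higher member only was held in 187 H2A.Z (31.8%) and 246 total pairs (35.7%), the lower only in 68 H2A.Z (11.6%) and 91 total pairs (13.2%), and neither in 162 H2A.Z (27.6%) and 187 total pairs (27.1%).

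The kind of pair mattered for this. Both members of a pair from 1 fit were held in 35.3% of H2A.Z pairs (30.7 to 40.2%) and 32.6% of total pairs (28.1 to 37.3%). In pairs from separate fits the shares were 15.3% for H2A.Z (10.4 to 21.3%) and 11.0% for total (7.54 to 15.3%). Where exactly 1 member was held by the other library it was the higher one in 187 of 255 H2A.Z pairs, or 73.3% (67.5 to 78.7%), and in 246 of 337 total pairs, or 73.0% (67.9 to 77.7%). With a match distance of 10 bp these shares were 67.4% for H2A.Z and 65.5% for total. At score ratios under 1.25 the share was 58.5% for H2A.Z (47.1 to 69.3%) and 53.3% for total (43.3 to 63.1%). At ratios of 2 or more it was 88.9% for H2A.Z (75.9 to 96.3%) and 85.7% for total (77.5 to 91.8%). The share was thus nearest to even for members of nearly equal score.

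**Figure D4:**
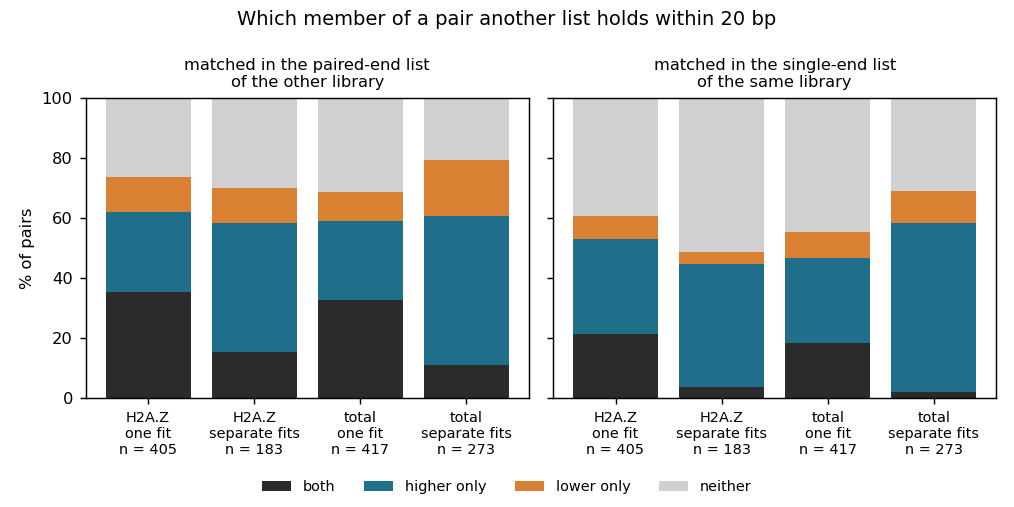
Percentage of pairs (vertical axis) of which another list holds both members, the higher-scoring only, the lower-scoring only or neither within 20 bp, by library and by whether the centres came from 1 fit (horizontal axis); the left panel matches to the paired-end list of the other library and the right panel to the single-end list of the same library. Both members were held by the other library in 35.3% of H2A.Z pairs from 1 fit and 15.3% of those from separate fits.

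Where the other library held both members, the same one was the stronger more often than not. Starting from H2A.Z pairs this was so in 110 of 171, or 64.3% (56.7 to 71.5%), and starting from total pairs in 110 of 166, or 66.3% (58.5 to 73.4%), sets that are largely the same places. In the upper 75% of scores the shares were 56.7% for H2A.Z pairs (45.8 to 67.1%), an interval that includes an even split, and 68.1% for total pairs (57.5 to 77.5%). The partners were themselves next to each other in 164 of the 171 H2A.Z pairs and 157 of the 166 total pairs. The distance within the pair differed between the libraries by a median of 8.20 bp starting from H2A.Z pairs and 8.14 bp starting from total pairs. The log2 score ratio of the left over the right member differed by a median of 0.29 between the libraries in both sets, and its Spearman's rho over the 171 H2A.Z pairs was 0.505, a description over places that share both libraries. The single-end list of the same library, which shares the DNA, had the same member higher in 81 of 93 H2A.Z pairs (87.1%) and 71 of 83 total pairs (85.5%). How often separate libraries of the same chromatin would do so is unknown.

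Switches between the libraries were mostly in nearly balanced pairs. At H2A.Z score ratios under 1.25 the same member was higher in 40 of 83 pairs, or 48.2% (37.1 to 59.4%), and at 1.25 to 2 in 56 of 73, or 76.7% (65.4 to 85.8%). At ratios of 2 or more it was higher in 14 of 15. Starting from total pairs these shares were 38 of 72, 63 of 84 and 9 of 10.

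The largest change was at 127556 and 127594 in the H2A.Z list, with scores of 2.33 and 0.602. The matched total positions, at 127556 and 127575, scored 0.00622 and 1.18. The left member was thus the stronger in the H2A.Z library, and its matched total entry had almost no score. The total position at 127575 lay about midway between the H2A.Z centres, so its match to the right member was by a narrow margin. The size of this change rests on that match. The pair was from separate fits in both lists. At 304403 and 304488 the H2A.Z scores were 1.91 and 1.06 and the total scores 0.221 and 0.875, again with the left member stronger in the H2A.Z library only. At 19584 and 19658, at 80287 and 80347, and at 104960 and 105053 the right member was the stronger in both libraries, with H2A.Z scores of 0.608 and 0.679, of 0.562 and 0.700, and of 0.532 and 0.620. Their left members had total scores of 0.00206, 0.00620 and 0.00196. As total pairs, those at 127556 and 127575, at 19586 and 19665 and at 80287 and 80356 had ratios of 189.8, 671 and 235, and so belong to the 47 with a high variance of the lower member. Of the 5 largest changes starting from total pairs, 3 were at these places, and the others were at 268366 and 268462 (H2A.Z scores 0.484 and 0.263, total scores 0.848 and 0.991) and at 280569 and 280605 (H2A.Z scores 0.671 and 0.504, total scores 0.750 and 1.18). In both of these the left member was the stronger in the H2A.Z library and the right member in total chromatin.

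**Figure D5:**
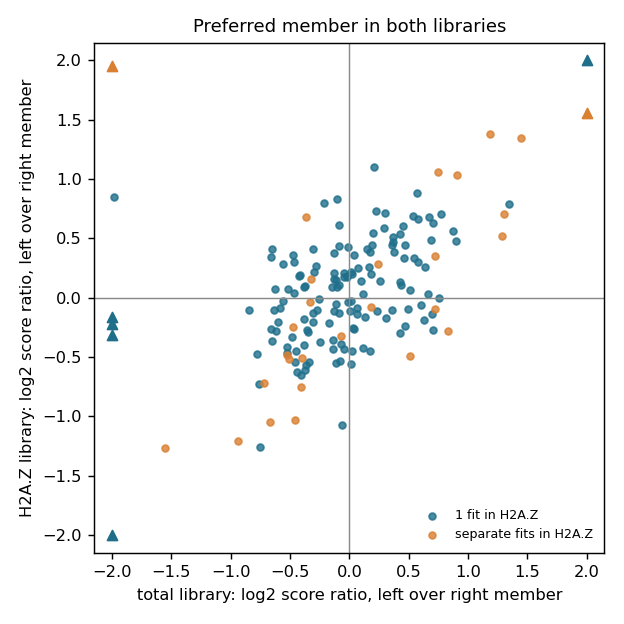
Log2 score ratio of the left over the right member in the H2A.Z library (vertical axis) and at the matched positions of the total library (horizontal axis), 1 point for each of the 171 H2A.Z pairs whose members were both matched; triangles at the edge are the 7 pairs with a value beyond 2 in either direction. The 110 pairs in the lower left and upper right have the same member higher in both libraries.

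Pairs were found along the whole chromosome. In windows of 10 kb they made up 11.9 to 44.0% of neighbouring distances in the H2A.Z list and 14.7 to 49.0% in the total list. The exact interval of a window lay above the share of its list in 2 of 32 windows and below it in 3 for H2A.Z, and above it in 2 and below it in 1 for total chromatin. The H2A.Z windows above were 0 to 10 kb, with 35 of 88 distances or 39.8% (29.5 to 50.8%), and 90 to 100 kb, with 37 of 84 or 44.0% (33.2 to 55.3%). In these the total list had 40.0% (29.2 to 51.6%) and 23.6% (14.4 to 35.1%). The total windows above were 180 to 190 kb and 280 to 290 kb. In the H2A.Z list pairs made up 34.5% of the distances in each of these, against 49.0% (51 of 104, 39.1 to 59.0%) and 40.7% (30.2 to 51.8%) in the total list. Over the 32 windows Pearson's r between the libraries was 0.448 and Spearman's rho 0.434, a description over windows that share the chromosome.

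The ends of the chromosome were somewhat richer in pairs by value. In both 20 kb ends together pairs made up 31.0% of distances in the H2A.Z list (25.8 to 36.6%) and 33.6% in the total list (28.2 to 39.2%). Between the ends the shares were 25.2% for H2A.Z (23.3 to 27.2%) and 28.7% for total (26.8 to 30.7%), so the intervals of ends and interior overlapped in both lists.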

How the data were processed

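The files are lists of nucleosome positions on chromosome III that the authors made separately for each library from paired-end or single-end data, with PING, a mixture model of read positions, per the series title. The submitters' processing notes name BWA, SAMtools and sacCer2, without versions. Filters and settings are not known here. Per the file headers, each deposited entry has a centre, a peak distance and standard errors (bp), variances (squared bp), a score and a mixing weight, a fraction. The samples were grouped by title.

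Tables were handled with pandas 2.3.3, intervals came from scipy 1.17.1, arrays from numpy 2.4.6 and plots from matplotlib 3.10.9, under Python 3.11.15. Share intervals are exact Clopper-Pearson, median intervals use order statistics, both at 95%. Intervals of the period length are symmetric normal ones set by the number of pairs. The 10 bp period used a trend of degree 4. Ratios, matching and periods were tested on simulated data. Places named by coordinate are the 5 pairs per list with the highest lower score, the 3 longest runs, the 2 nearest to each limit on either side, and the 5 largest changes of the score ratio. Members and rules were chosen with earlier results of these data known. The splits by fit and by score ratio were added after seeing the data. Coordinates are those of the files (sacCer2). Gene annotation was at hand for a different build only, so no gene is named, and no sequence is given.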

Additional observations from a re-analysis of the deposited data

Results flagged for a closer look

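Differences with opposite signs in paired-end and single-end lists are given here as values; none was tested, because no group has a second library. The share of neighbouring centres 10 to 100 bp apart differed by -3.354 percentage points (H2A.Z minus total) in paired-end and by 0.6991 in single-end lists. The median score ratio within pairs differed by -0.06051 in paired-end and by 0.03078 in single-end lists. The median forward SD difference within pairs, higher minus lower member, was -0.997 bp for H2A.Z and -1.07 bp for total in paired-end lists, so that the signed value differed by 0.0748 bp (H2A.Z minus total) and the size was smaller for H2A.Z. In single-end lists the signed difference was -0.445 bp. In the total library itself it was -1.072 bp in the paired-end and 0.3565 bp in the single-end list, while single-end data of the H2A.Z library gave -0.08847 bp. The single-end intervals of this difference include 0 in both libraries (-0.60 to 0.61 bp for H2A.Z and -0.77 to 1.91 bp for total).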

How the results depend on the processing

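Each of 24 results was recomputed, 88 times in all. The value lay inside the original 95% interval in 46 cases, outside it with the same sign in 41 and outside it with the other sign in 1; the causes were not tested. The share of pairs among neighbours was 18.6% for H2A.Z and 18.0% for total in the upper 75% of scores, 11.9% for H2A.Z and 7.14% for total in the upper 50%, 18.2% for H2A.Z and 18.6% for total with whole identifiers, and 9.74% for H2A.Z and 9.04% for total in single-end lists. The H2A.Z list thus held the larger share in both score subsets and in single-end data, unlike in the lists as deposited. Median distances were 69.97 bp for H2A.Z and 62.4 bp for total in the upper 75%, 78.8 bp for H2A.Z and 78.4 bp for total with whole identifiers, and 84.8 bp for H2A.Z and 81.4 bp for total in single-end lists. Median score ratios were 1.22 for H2A.Z and 1.23 for total in the upper 75%, and 1.24 for H2A.Z and 1.21 for total in single-end lists. For total they were 1.27 with whole identifiers and 1.33 without the high variances, a setting added after seeing the data. The delta difference in single-end lists was -2.04 bp for H2A.Z and -3.37 bp for total. Inside its interval, which includes 0, it had the other sign at 0.06 bp for H2A.Z in the upper 75% and at 0.02 bp for total with whole identifiers. The forward SD difference in single-end lists was -0.0885 bp for H2A.Z and 0.357 bp for total, a change of sign for total, where it was -0.678 bp in the upper 75%. The share of paired positions in runs was 43.0% for H2A.Z and 40.4% for total in the upper 75%, 29.1% for H2A.Z and 33.1% for total in single-end lists, and 32.1% for H2A.Z and 33.1% for total with a limit of 80 bp. Ends of 30 kb held 20.6% of H2A.Z and 19.6% of total pairs, where ends of 20 kb held 15.6% of H2A.Z and 14.6% of total pairs, by construction. The space between outer neighbours was 350.6 bp for H2A.Z and 348.9 bp for total in the upper 75%, and 356 bp for H2A.Z and 349 bp for total in single-end lists. With a match distance of 10 bp the member held by the other library was the higher one in 67.4% for H2A.Z and 65.5% for total. With 30 bp the member held by the single-end list was the higher one in 85.1% for total. With ratios of at least 1.5 in both libraries the same member was higher in 90% of 20 pairs for H2A.Z and 93.8% of 16 pairs for total. Without that limit the share was 56.7% for H2A.Z and 68.1% for total in the upper 75%. The strength of the 10 bp period stayed within its wide interval under the alternatives run. For total it was 0.0996 (0.0218 to 0.177) in the upper 75%, beside 0.0492 as reported, and such an interval does not test for a period. No paired analysis was possible because each group has 1 library. The standard errors of the centres limit what the distances can show, and depth is unknown.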
